A study of Cavia porcellus with 44 samples.

Results

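The keratins, actins, myosins, tropomyosins, calponins, transgelins, filamin and tubulins measured in guinea pig liver are described here across 6 diet groups. Members were taken by gene symbol from the deposited table of variance-stabilized values, by a rule that uses names alone: those of the keratin (KRT23 excepted), actin, alpha-actinin, myosin heavy and light chain, tropomyosin, tubulin, calponin, transgelin and filamin families, plus VIM, DES and CALD1. Members made up 38 of its 7747 symbols, 9 of them keratins. The tubulin names also matched TUBGCP2, a protein of the gamma-tubulin complex. The count table held 84 symbols that the same names matched, and the other 46 had totals of at most 147 counts over all animals, with 20 at 0. Members totalled 274 counts or more, so that presence in the table went with the total count. VIM, DES, CALD1, MYH11 and TUBB were not among the rows and were not analysed here. The row KRT8.2 was taken as keratin 8, since the rows KRT8 and KRT8.1 were among those with low totals, and which guinea pig gene each of these rows holds is not given in the sources used here.

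Keratins are the intermediate filament proteins of epithelial cells and assemble as pairs of a type I and a type II chain. In the liver, hepatocytes carry keratin 8 with keratin 18, and the cells lining the bile ducts carry keratin 7 and keratin 19 in addition. Actin filaments with tropomyosin and non-muscle myosin give cells their shape, adhesion and movement, whereas the smooth muscle forms of these proteins belong to vessel walls and to activated stellate cells, the liver cells that lay down scar matrix. Microtubules are built from pairs of alpha and beta tubulin, carry secretory vesicles and form the mitotic spindle.

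Female Hartley guinea pigs were studied, a species that like humans cannot make vitamin C (vitC). LFH animals (n = 8, labelled healthy) received a low fat high vitC feed for 32 weeks, pair-fed to HFH. HFH animals (n = 8, NASH) received a high fat high vitC feed for 32 weeks. All animals of the other 4 groups had received high fat low vitC feed for the first 16 weeks, and their names give the first and then the second feed. For the second 16 weeks HFL/HFL (n = 10, NASH) stayed on it, HFL/HFH (n = 6, NASH) received high fat high vitC, HFL/LFL (n = 6, NAFLD) low fat low vitC and HFL/LFH (n = 6, NAFLD) low fat high vitC. The switched low fat groups were pair-fed, HFL/LFL to HFL/HFL and HFL/LFH to HFL/HFH. Per the paper, the high fat feeds also held added sucrose and cholesterol, and the low fat feeds held neither. Effects of fat, sucrose and cholesterol therefore cannot be told apart, and high fat feed below stands for the whole feed. RNA came from a piece of the left lateral lobe taken at week 32, and each library was 1 animal. Whole tissue was sequenced, so that fewer cells of a type and less RNA per cell cannot be told apart.

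Libraries held 21133807 to 35427724 counts (median 25652393), and 3 counts, used as the floor, equalled 0.0626 to 0.170 CPM (counts scaled to the size of the library). CPM used TMM normalization, with factors from 0.715 to 1.38. Differences are log2 fold changes from edgeR's quasi-likelihood test on all 44 animals, with Benjamini-Hochberg adjustment over the 7750 symbols tested. A member was called when its adjusted p was under 0.05. The standard error after ± is not given by edgeR. It was derived as the absolute log2 fold change over the square root of the test's F statistic, and is approximate. All 38 members passed the filter on low totals, with totals from 274 to 3449064 counts, and 10 of them had a mean under 2 CPM.

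The question of the feed was addressed by 3 comparisons of high with low fat feed. For HFH over LFH, 21 of 38 members were called (55.3%), 18 higher and 3 lower in HFH, against 49.3% of all symbols (27.7% higher, 21.7% lower). For HFL/HFH over HFL/LFH, 21 members were called, 19 higher and 2 lower, against 35.9% of all symbols (19.4% higher, 16.5% lower). In the low vitC pair, HFL/HFL over HFL/LFL, 16 members were called (42.1%), 13 higher and 3 lower, against 37.8% (19.7% higher, 18.1% lower). The share of members called was thus near the background in the first and the third comparison, while the calls were mostly in the direction of high fat feed. KRT4 is one of the members called higher in each comparison, and its total of 274 counts passed the filter through the high fat animals (268 counts, against 6 in the low fat animals). It would not be a member without them, so its calls are given as a description. They remained when the filter on low counts was dropped, which does not undo how KRT4 became a member. No other member would have had a total under 200 at the mean count of either feed alone. Without KRT4, a count added after the data were seen, the calls were 20 (17 higher), 20 (18 higher) and 15 (12 higher) of 37 members. The median log2 difference of the members was 0.60, 0.64 and 0.34 in the 3 comparisons, and that of all symbols was 0.06, 0.01 and 0.03.

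In all 3 comparisons 15 members were called with the same sign, 13 higher and 2 lower, against 23.9% of all symbols (13.4% higher, 10.5% lower). The 13 were KRT8.2, KRT18, KRT7, KRT19, KRT80, ACTB, TPM1, TPM3, CNN2, TAGLN2, MYL12A and TUBB4B with KRT4, given as a description, and the 2 were ACTG2 and MYH3. MYH7, MYH9 and TUBB4A were called in 2 of 3 comparisons, 7 members in 1 and 13 in none. Groups did not overlap for 11 members in HFH against LFH (16.9% of all symbols), for 11, KRT4 among them, in HFL/HFH against HFL/LFH (16.2%) and for 9 in HFL/HFL against HFL/LFL (9.90%). For 6 members, KRT8.2, KRT18, KRT19, KRT80, TPM1 and TAGLN2, every one of the 24 animals on high fat feed lay above all 20 on low fat feed, which held for 3.96% of all symbols in either direction. As a share of all counts the 38 members took a mean of 0.545% (LFH), 0.559% (HFL/LFH) and 0.694% (HFL/LFL) with low fat feed, and of 1.32% (HFH), 1.43% (HFL/HFH) and 1.29% (HFL/HFL) with high fat feed. These shares use library totals without TMM. With that scaling the median log2 difference of all symbols was itself 0.62, 0.47 and 0.36 in the 3 feed comparisons. The 4 actins alone took a mean of 0.270% in LFH and 0.570% in HFH.

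**Figure D1:**
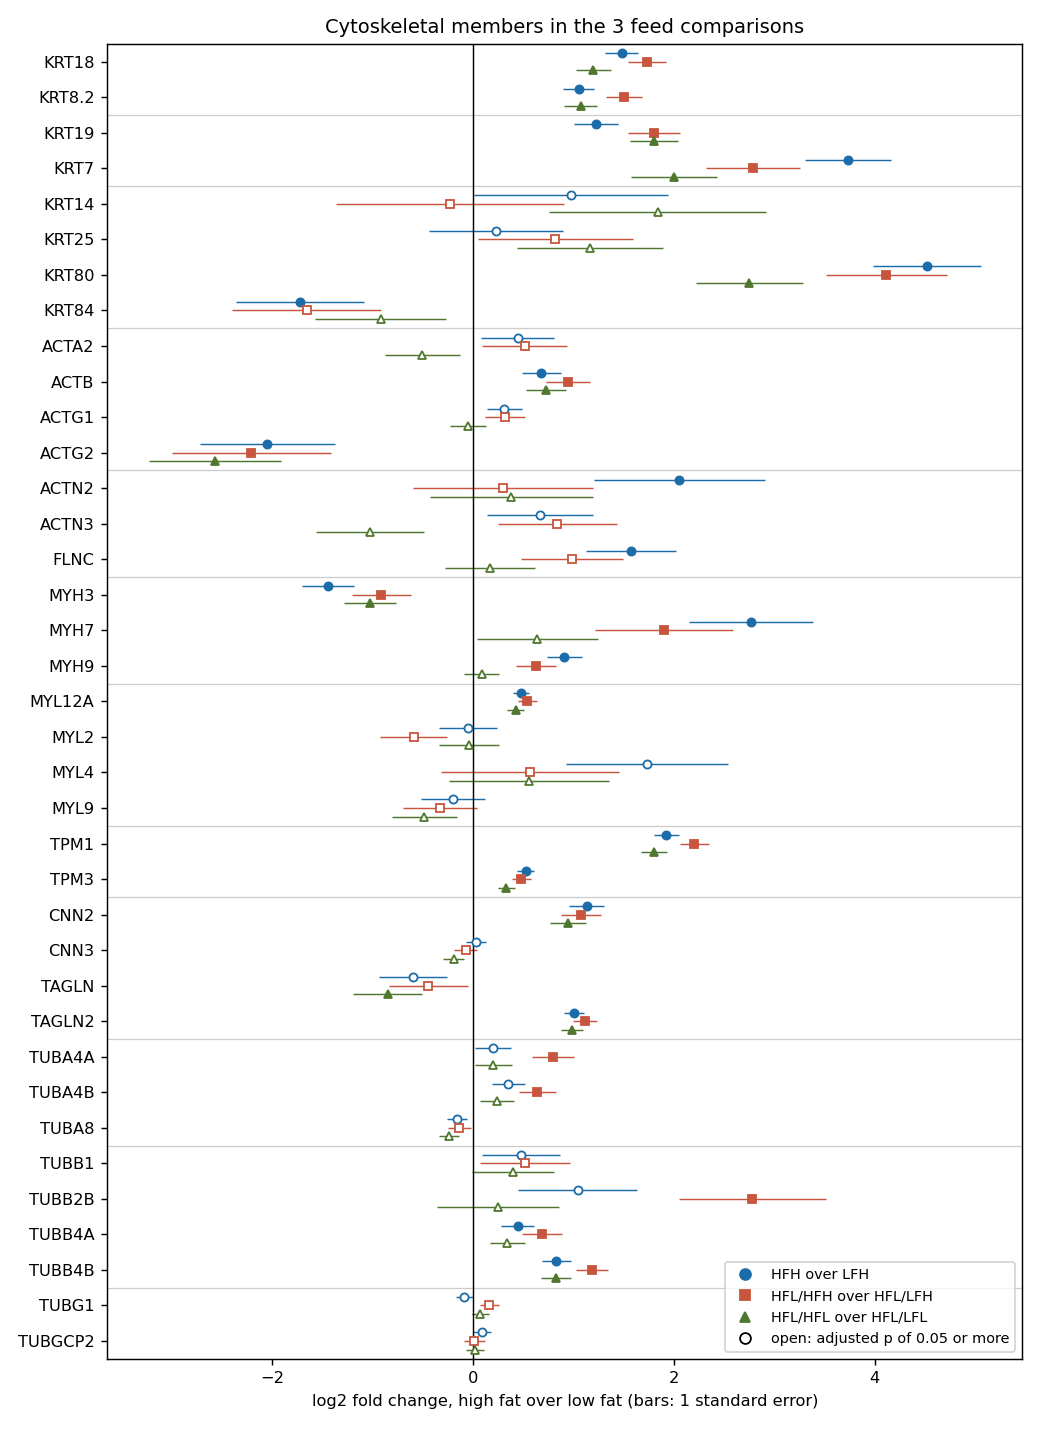
Log2 fold change of 37 members (rows) in the 3 comparisons of high over low fat feed, with bars of 1 standard error and filled points where the adjusted p was under 0.05; KRT4 is omitted because nearly all low fat animals had a count of 0. KRT80, KRT7 and TPM1 lie far to the right in each comparison, and ACTG2 and MYH3 to the left; scaling by library totals alone ended the ACTG2 calls in HFH over LFH and in HFL/HFH over HFL/LFH and the MYH3 call in the latter, without a change of sign.

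The rows taken as both keratins of hepatocytes rose with high fat feed. KRT8.2, read as the type II chain, ran from 409.5 to 737 CPM in LFH (median 558) and from 847 to 1634 in HFH (median 1175). After the switch at high vitC it ran from 299 to 614 (median 507) in HFL/LFH and from 837 to 1871 (median 1408) in HFL/HFH. At low vitC the values were 431 to 639 (median 519) in HFL/LFL and 849.6 to 1279.9 (median 1188) in HFL/HFL. No animal on low fat feed reached the lowest animal on high fat feed. The log2 differences were 1.05 ± 0.15 (adjusted p = 2.55e-07), 1.51 ± 0.18 (adjusted p = 9.85e-09) and 1.07 ± 0.16 (adjusted p = 1.64e-06) in HFH over LFH, HFL/HFH over HFL/LFH and HFL/HFL over HFL/LFL, the order kept below.

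KRT18, the type I partner of keratin 8, ran from 53.6 to 108 CPM in LFH (median 68.4), from 65.8 to 87.4 in HFL/LFH (median 76.8) and from 56.8 to 113 in HFL/LFL (median 79.8). The high fat groups held 149 to 247 (HFH, median 177), 128 to 353 (HFL/HFH, median 263) and 154 to 219 (HFL/HFL, median 202). The feeds did not overlap, and the differences were 1.48 ± 0.16 (adjusted p = 5.08e-10), 1.73 ± 0.19 (adjusted p = 1.45e-09) and 1.20 ± 0.17 (adjusted p = 5.59e-07). Both chains thus rose by 2.08- to 3.32-fold.

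Both keratins of bile duct cells rose as well. KRT19 ran from 120.4 to 356 CPM in LFH (median 222), from 85.9 to 290.0 in HFL/LFH (median 161) and from 61.02 to 294 in HFL/LFL (median 156). In HFH it ran from 416 to 601 (median 553), in HFL/HFH from 512 to 901 (median 546) and in HFL/HFL from 439 to 795 (median 531). All high fat animals lay above all low fat animals, and the differences were 1.22 ± 0.22 (adjusted p = 1.06e-05), 1.80 ± 0.26 (adjusted p = 3.85e-07) and 1.80 ± 0.24 (adjusted p = 1.46e-07).

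KRT7, a type II keratin of duct cells, varied more between animals of a group. It ran from 4.90 to 28.8 CPM in LFH (median 8.98), from 8.58 to 41.4 in HFL/LFH (median 11.6) and from 11.6 to 44.1 in HFL/LFL (median 18.3). High fat groups ranged from 24.1 to 310.0 (HFH, median 117), from 51.9 to 171 (HFL/HFH, median 118) and from 34.6 to 169 (HFL/HFL, median 86.7). Of the 24 high fat animals 21 lay above the highest low fat animal. The differences of 3.73 ± 0.43 (adjusted p = 1.16e-09), 2.79 ± 0.47 (adjusted p = 7.31e-06) and 2.005 ± 0.43 (adjusted p = 0.000255) corresponded to 13.3-, 6.90- and 4.01-fold.

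KRT80, a type II keratin of epithelia, was close to the floor in LFH, where 3 of 8 animals had at most 3 counts and the range was 0 to 2.55 CPM (median 0.256). It ran from 0.343 to 1.42 in HFL/LFH (median 0.481) and from 0.463 to 2.57 in HFL/LFL (median 1.20). In HFH it reached 6.21 to 26.1 (median 9.79), in HFL/HFH 6.92 to 25.2 (median 9.37) and in HFL/HFL 5.52 to 15.3 (median 8.197). The feeds did not overlap. The differences were 4.52 ± 0.54 (adjusted p = 2.86e-09), 4.12 ± 0.60 (adjusted p = 5.56e-07) and 2.75 ± 0.53 (adjusted p = 6.83e-05), and without LFH animal 27, which held the highest LFH value, the first became 5.63.

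KRT4, a keratin of stratified linings, was seen in few low fat animals. Counts of 2 were found in 2 LFH animals and 0 in the other 6, HFL/LFH held 0 in all 6 animals, and HFL/LFL held 2 in 1 animal and 0 in the others. Counts ran from 0 to 38 in HFH, from 7 to 22 in HFL/HFH and from 0 to 14 in HFL/HFL. Its values are a description, since the high fat animals alone carried it past the filter. The mean of 0.400 CPM in HFL/HFH was at least 2.35-fold higher than the highest floor of an HFL/LFH library, 0.170 CPM. KRT84, a hair keratin, went the other way, from 0.53 to 1.73 CPM in LFH (median 0.939) to 0 to 0.841 in HFH (median 0.284). The groups overlapped, and the difference was −1.72 ± 0.64 (adjusted p = 0.0227). With scaling by library totals alone it was −1.23 (adjusted p = 0.0827). By edgeR KRT84 was not called in the other feed comparisons, at −1.66 ± 0.74 (adjusted p = 0.0773) and −0.92 ± 0.65 (adjusted p = 0.278), whereas DESeq2 (adjusted p = 0.0316) and limma on the variance-stabilized values (adjusted p = 0.0222) called it lower in HFL/HFH over HFL/LFH. KRT14 and KRT25, keratins of basal cells and of the hair root, were called in no comparison on all animals, and their highest animals held 2.19 and 3.29 CPM. Without LFH animal 92 KRT14 was called in HFH over LFH.

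**Figure D2:**
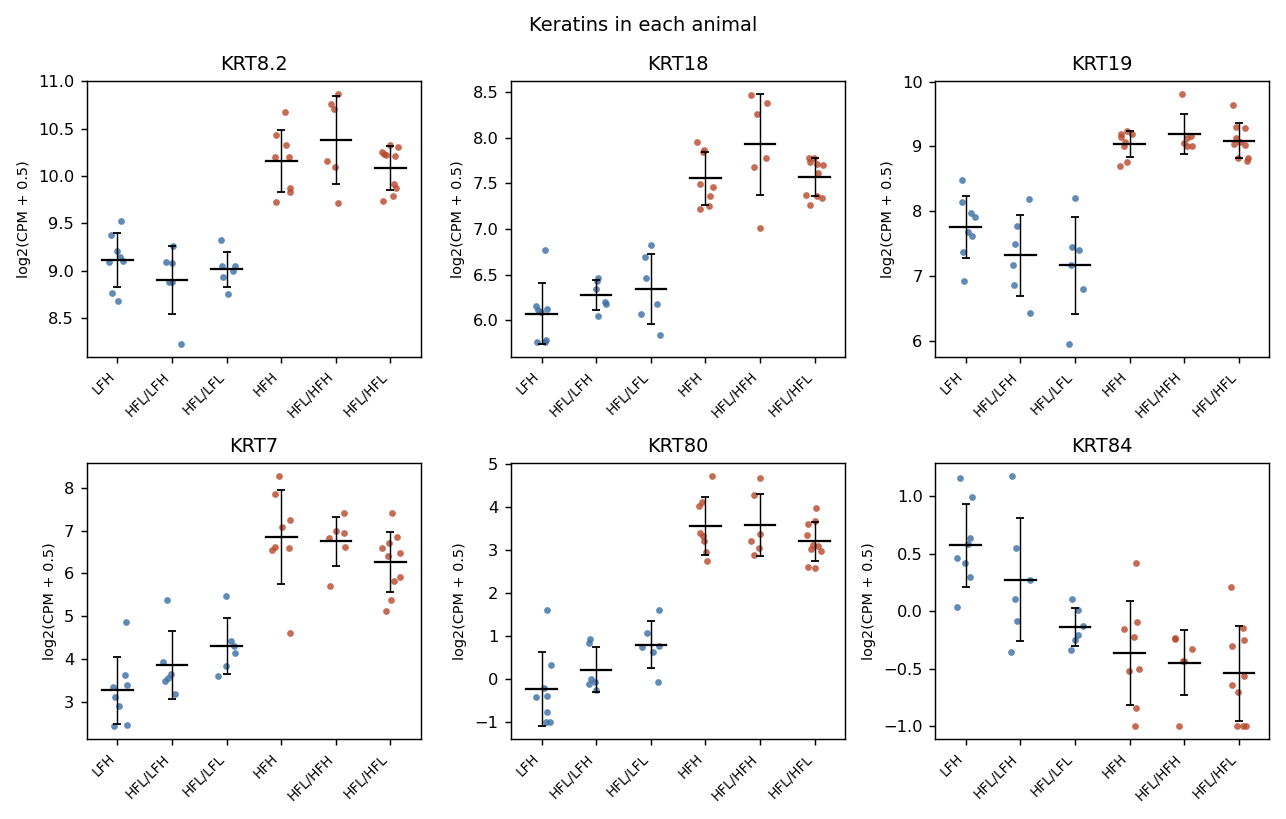
Level of 6 keratins in each animal, as log2(CPM + 0.5), by diet group; points are animals (blue low fat, red high fat second feed), the line is the group mean and bars are the SD. For KRT8.2, KRT18, KRT19 and KRT80 no low fat animal reaches a high fat animal, KRT7 overlaps in a few animals, and KRT84 was called lower in HFH over LFH, a call lost with scaling by library totals alone.

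Keratins 7 and 19 also mark bile duct cells. Of 10 other duct markers 3 had tested rows, EPCAM, CLDN4 and SCTR, and all 3 were higher in each feed comparison. Their summed level was 31.7 to 80.3 CPM in LFH, 42.2 to 149.9 in HFL/LFH and 55.4 to 179 in HFL/LFL, and it was 306 to 956 in HFH, 298 to 548 in HFL/HFH and 218 to 766 in HFL/HFL. EPCAM, an adhesion protein of duct epithelium, differed by 3.75 ± 0.28 (adjusted p = 1.62e-14), 2.65 ± 0.30 (adjusted p = 4.34e-09) and 2.16 ± 0.28 (adjusted p = 7.94e-08). The hepatocyte markers ALB, ASGR1 and SERPINA1 moved the other way, with 3, 1 and 2 of 3 lower. They summed to 99063 to 215398 CPM in LFH, 68683 to 200382 in HFL/LFH and 74739 to 168971 in HFL/LFL, and to 20529 to 87961 in HFH, 39796 to 68356 in HFL/HFH and 26974 to 79059.8 in HFL/HFL. The median log2 difference of the 3 hepatocyte markers was −0.85, −0.56 and −0.80 in the 3 feed comparisons, and their sum gives most weight to the most abundant marker. The part of either marker list in the keratin results was not tested.

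Of 10 listed proteins that link keratin filaments to cell junctions 7 were tested, with 3 higher in HFH over LFH, 0 called in HFL/HFH over HFL/LFH and 1 higher in HFL/HFL over HFL/LFL. PPL, periplakin, differed by 1.44 ± 0.20 (adjusted p = 1.5e-07), 0.47 ± 0.23 (adjusted p = 0.111) and 0.80 ± 0.21 (adjusted p = 0.00285). DSP, desmoplakin, differed by 1.17 ± 0.28 (adjusted p = 0.000559) in the first comparison and was not called in the others, at 0.70 ± 0.32 and 0.11 ± 0.29. PKP2, plakophilin 2, had a difference of 0.29 ± 0.12 (adjusted p = 0.0432) in the first.

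Of the actin side, both tropomyosins rose. TPM1, which winds along actin filaments and governs access of myosin, ran from 164 to 246 CPM in LFH (median 225), from 181 to 252 in HFL/LFH (median 227) and from 219 to 332 in HFL/LFL (median 273). The high fat groups held 604 to 1112 (HFH, median 776), 795 to 1263 (HFL/HFH, median 1034) and 717 to 1166 (HFL/HFL, median 935). The highest low fat animal, at 332 CPM, stood far under the lowest high fat animal, at 604 CPM. The differences were 1.93 ± 0.12 (adjusted p = 4.88e-16), 2.20 ± 0.14 (adjusted p = 1.92e-15) and 1.80 ± 0.13 (adjusted p = 1.33e-13), or 3.80-, 4.61- and 3.49-fold, the smallest p among members in each comparison.

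TPM3, the tropomyosin of non-muscle and slow muscle cells, was higher by 1.26- to 1.44-fold. It ran from 116 to 138 CPM in LFH (median 128) and from 151 to 226 in HFH (median 179.8), with no overlap. It ran from 125 to 148 in HFL/LFH and from 150.3 to 226 in HFL/HFH, again apart, and from 131 to 173 in HFL/LFL and 168 to 210.2 in HFL/HFL, where the groups touched. The differences were 0.53 ± 0.08 (adjusted p = 1.55e-06), 0.48 ± 0.10 (adjusted p = 0.00011) and 0.33 ± 0.09 (adjusted p = 0.00252).

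Of the cytoplasmic actins ACTB was called in all 3 comparisons and ACTG1 in none. ACTB, beta-actin, ran from 1105 to 3011 CPM in LFH (median 1949), from 1004 to 2672 in HFL/LFH (median 1837) and from 1565 to 3501 in HFL/LFL (median 2199). High fat groups held 2408 to 4767 (HFH, median 2932), 2313 to 4448 (HFL/HFH, median 4043) and 2839 to 5267 (HFL/HFL, median 3741). Each pair of groups overlapped, and the differences were 0.68 ± 0.19 (adjusted p = 0.0028), 0.95 ± 0.22 (adjusted p = 0.000658) and 0.73 ± 0.20 (adjusted p = 0.00386).

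ACTG1, gamma-actin, had medians of 1249, 1431 and 1454 CPM in LFH, HFL/LFH and HFL/LFL and of 1377, 1760.4 and 1449 in HFH, HFL/HFH and HFL/HFL. It was not called, at 0.31 ± 0.17 (adjusted p = 0.138), 0.32 ± 0.20 (adjusted p = 0.225) and −0.05 ± 0.18 (adjusted p = 0.854). With scaling by library totals alone it was called higher in the first and second comparisons (log2 differences of 0.84 and 0.79). Beta- and gamma-actin share most of their coding sequence, and how reads were divided between them was not stated.

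TAGLN2, an actin-binding protein of non-muscle cells, ran from 145 to 224 CPM in LFH (median 179), from 145 to 225 in HFL/LFH (median 178) and from 166 to 236 in HFL/LFL (median 194). With high fat feed it ran from 277 to 409.7 (HFH, median 379), from 293 to 445 (HFL/HFH, median 412) and from 349 to 445 (HFL/HFL, median 385). No low fat animal reached a high fat animal, and the differences of 1.005 ± 0.10 (adjusted p = 8.59e-11), 1.12 ± 0.12 (adjusted p = 7.28e-10) and 0.98 ± 0.11 (adjusted p = 2.67e-09) corresponded to 2.01-, 2.17- and 1.98-fold.

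CNN2, the calponin of non-muscle cells, ran from 14.5 to 40.4 CPM in LFH (median 18.7) and from 33.98 to 58.5 in HFH (median 43.7). It ran from 12.2 to 28.3 in HFL/LFH and 29.7 to 54.2 in HFL/HFH, and from 21.6 to 29.9 in HFL/LFL and 36.4 to 68.5 in HFL/HFL. Only the first pair overlapped, through LFH animal 64. The differences were 1.13 ± 0.17 (adjusted p = 6.57e-07), 1.07 ± 0.20 (adjusted p = 3.67e-05) and 0.95 ± 0.18 (adjusted p = 7.06e-05). Its relative CNN3 was not called (0.03 ± 0.10, −0.07 ± 0.11 and −0.19 ± 0.10), and the row for CNN3 held the same counts as ALG14 in every animal, so that its values cannot be assigned to one gene.

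Of the non-muscle myosin chains, MYL12A, a regulatory light chain, ran from 244 to 299.5 CPM in LFH (median 278), from 239.7 to 291 in HFL/LFH (median 262) and from 257 to 313 in HFL/LFL (median 292). High fat groups held 313 to 468 (HFH, median 389.9), 329 to 434 (HFL/HFH, median 379.8) and 344 to 432 (HFL/HFL, median 389). The groups of each comparison did not overlap, and 23 of 24 high fat animals lay above all low fat animals. The differences were small, at 0.48 ± 0.08 (adjusted p = 1.97e-06), 0.54 ± 0.09 (adjusted p = 5.68e-06) and 0.43 ± 0.08 (adjusted p = 6.2e-05).

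MYH9, the heavy chain of non-muscle myosin IIA, ran from 543 to 1019 CPM in LFH (median 741) and from 871 to 1964 in HFH (median 1486), with a difference of 0.91 ± 0.17 (adjusted p = 2.63e-05). The ranges were 595 to 961 in HFL/LFH (median 906) and 681 to 1839 in HFL/HFH (median 1184), with a difference of 0.63 ± 0.20 (adjusted p = 0.0114) that was lost without HFL/HFH animal 15 (adjusted p = 0.0527). At low vitC the medians were 1012 CPM in HFL/LFL and 1001 in HFL/HFL, and the difference of 0.09 ± 0.18 (adjusted p = 0.737) was not called. Scaling by library totals alone called MYH9 higher there, at 0.42 (adjusted p = 0.0235). MYH9 overlapped between the feeds in each comparison. Whether its feed difference depended on vitC was tested by the interaction, which was not called (−0.54 ± 0.27, unadjusted).

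**Figure D3:**
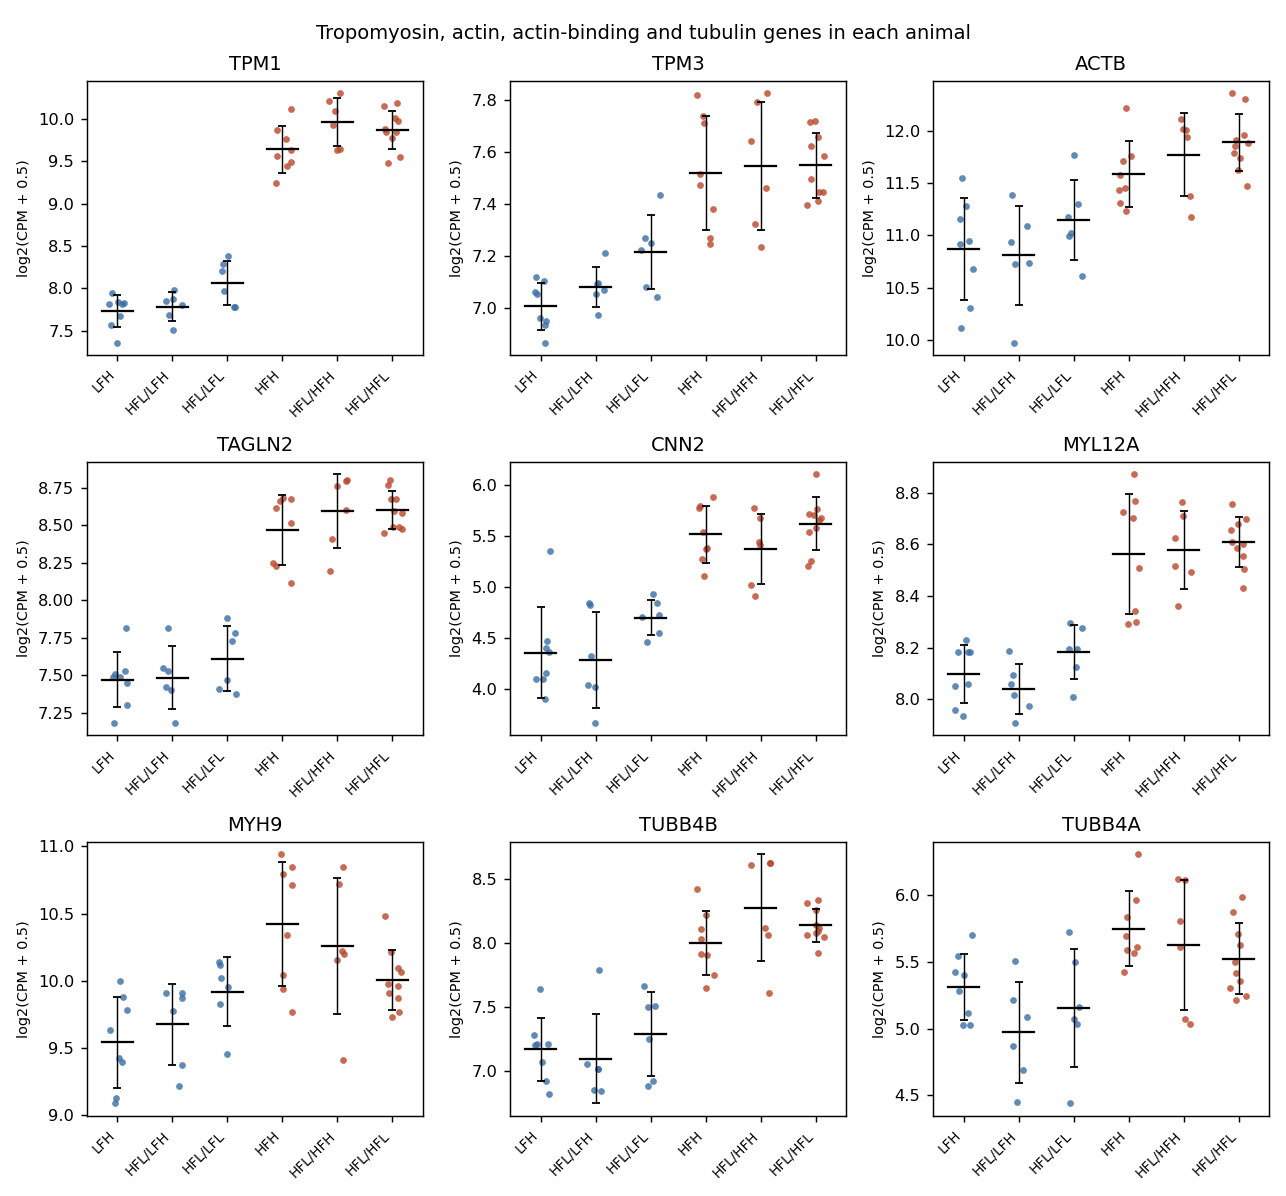
Level of 9 tropomyosin, actin, actin-binding, non-muscle myosin and tubulin genes in each animal, as log2(CPM + 0.5), by diet group; points are animals (blue low fat, red high fat second feed), the line is the group mean and bars are the SD. TPM1 and TAGLN2 separate all 24 high fat from all 20 low fat animals, whereas ACTB, MYH9 and TUBB4A overlap.

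The genes that regulate actin were read from a list of 49, of which 26 were tested. In the 3 feed comparisons 12, 14 and 13 were higher and 0, 1 and 1 lower. GSN, gelsolin, which cuts and caps actin filaments, differed by 1.55 ± 0.21 (adjusted p = 3.78e-08), 1.75 ± 0.24 (adjusted p = 1.58e-07) and 1.56 ± 0.22 (adjusted p = 4.36e-07). ARPC5, a subunit of the complex that branches actin filaments, differed by 0.80 ± 0.11 (adjusted p = 4.01e-08), 0.81 ± 0.12 (adjusted p = 1.31e-06) and 0.56 ± 0.11 (adjusted p = 0.000102). FSCN1, fascin, which bundles filaments, differed by 1.24 ± 0.19 (adjusted p = 4.15e-07), 1.27 ± 0.22 (adjusted p = 8.08e-06) and 1.05 ± 0.20 (adjusted p = 4.74e-05). All 3 rose in each comparison. SRF, the transcription factor of many actin genes, was called in the low vitC comparison (0.06 ± 0.10, −0.08 ± 0.11 and 0.26 ± 0.10, adjusted p = 0.645, 0.609 and 0.0439), and RHOA, the small GTPase that drives contraction, was not called (0.05 ± 0.08, 0.02 ± 0.10 and 0.08 ± 0.09). MYLK, the kinase of myosin light chain, was not analysed here.

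Of 10 listed smooth muscle genes 5 were tested, namely ACTA2, ACTG2, MYL9, TAGLN and FLNC, with 1 higher and 1 lower in HFH over LFH, 1 lower in HFL/HFH over HFL/LFH and 2 lower in HFL/HFL over HFL/LFL. ACTA2, the smooth muscle actin that activated stellate cells also make, ran from 17.5 to 197 CPM in LFH (median 107), from 32.7 to 178 in HFL/LFH (median 75.4) and from 56.5 to 212 in HFL/LFL (median 196). The high fat ranges were 61.4 to 275 (HFH, median 114), 59.7 to 239.8 (HFL/HFH, median 109) and 70.4 to 229 (HFL/HFL, median 111). The groups overlapped throughout and no difference was called, at 0.45 ± 0.37 (adjusted p = 0.33), 0.51 ± 0.42 (adjusted p = 0.372) and −0.50 ± 0.37 (adjusted p = 0.3). Scaling by library totals alone called it higher in HFH over LFH, at 1.02 (adjusted p = 0.0261).

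ACTG2, the enteric smooth muscle actin, was lower with high fat feed. It ran from 1.71 to 37.4 CPM in LFH (median 21.5), from 4.60 to 28.5 in HFL/LFH (median 13.1) and from 2.22 to 76.3 in HFL/LFL (median 18.4). With high fat feed the ranges were 0.666 to 15.3 (HFH, median 2.61), 1.04 to 6.20 (HFL/HFH, median 2.73) and 0.742 to 17.2 (HFL/HFL, median 3.83). Each pair of groups overlapped despite medians several times apart. The differences were −2.05 ± 0.67 (adjusted p = 0.0105), −2.21 ± 0.79 (adjusted p = 0.0251) and −2.57 ± 0.66 (adjusted p = 0.00199). The second was lost without any 1 of HFL/HFH animals 20, 22 and 84 or HFL/LFH animal 43 (adjusted p up to 0.0681), and scaling by library totals alone left the first at −1.47 (adjusted p = 0.0557) and the second at −1.74 (adjusted p = 0.0671).

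TAGLN, a calponin relative of smooth muscle, had medians of 95.8, 62.4 and 109 CPM in LFH, HFL/LFH and HFL/LFL and of 45.05, 43.2 and 59.4 in HFH, HFL/HFH and HFL/HFL. It was called lower in the third comparison (−0.85 ± 0.34, adjusted p = 0.047), and that call was lost in 11 of 16 fits leaving out 1 animal, under upper-quartile normalization, without the filter, with limma, with library totals alone and without the 3 animals named below. The other differences were −0.60 ± 0.34 (adjusted p = 0.143) and −0.44 ± 0.39 (adjusted p = 0.406), and the first was called lower without HFH animal 88. MYL9, the smooth muscle regulatory light chain, was not called (−0.20 ± 0.32, −0.33 ± 0.37 and −0.48 ± 0.32). FLNC, the filamin of muscle, ran from 0.657 to 8.60 CPM in LFH and 5.53 to 17.9 in HFH and was higher in that comparison, by 1.58 ± 0.45 (adjusted p = 0.00317), with values of 0.99 ± 0.51 (adjusted p = 0.13) and 0.17 ± 0.45 (adjusted p = 0.796) in the others. The second was called with only the groups compared in the fit (adjusted p = 0.0345) and with library totals alone (adjusted p = 0.0282).

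Levels of the smooth muscle genes differed widely between animals of a group. LFH animal 5 was the lowest of its group for ACTA2, ACTG2, MYL9, TAGLN and FLNC. HFL/LFH animal 33 was the highest of its group for ACTA2, MYL9 and TAGLN, and HFL/LFL animal 44 for MYL9 and TAGLN. Mesothelial markers (4 tested of 8), which mark the cells covering the liver's surface, summed to 64.9 CPM in HFL/LFH animal 32 and to at most 9.09 in the other 5 of that group. They summed to 0.158 to 17.97 CPM in LFH, 1.27 to 17.98 in HFL/LFL, 0.63 to 38.7 in HFH, 0.298 to 2.25 in HFL/HFH and 0.727 to 30.996 in HFL/HFL, and 3 of 4 were lower in HFL/HFH over HFL/LFH, with 0 called in the other feed comparisons. Without HFL/LFH animals 32 and 33 and HFL/LFL animal 44, a choice made after the data were seen, the calls were 22, 22 and 16 in the 3 feed comparisons.

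The markers of vascular smooth muscle (5 tested of 6) were mixed. RGS5, a pericyte gene, was higher in all 3 comparisons, by 2.29 ± 0.18, 2.07 ± 0.21 and 1.35 ± 0.19, and LMOD1, an actin nucleator of smooth muscle, differed by −0.67 ± 0.37 (adjusted p = 0.129), −1.37 ± 0.43 (adjusted p = 0.0108) and −1.40 ± 0.37 (adjusted p = 0.00261). In all, 1, 1 and 1 were higher and 0, 2 and 1 lower. Their sum was 137 to 251 CPM in LFH, 155 to 208 in HFL/LFH and 181 to 355 in HFL/LFL, and 448 to 1319 in HFH, 499 to 761 in HFL/HFH and 372 to 749 in HFL/HFL. RGS5 carried that difference: the sum of the other 4 markers had medians of 45.6, 33.8 and 37.9 CPM in LFH, HFL/LFH and HFL/LFL and of 36.95, 28.6 and 31.9 in HFH, HFL/HFH and HFL/HFL. Markers of stellate cells and fibroblasts (6 tested of 11) were 3, 3 and 2 higher and 1, 1 and 1 lower. They summed to 327 to 679.6 CPM in LFH, 308 to 448 in HFL/LFH, 408 to 702 in HFL/LFL, 531 to 1337 in HFH, 492 to 813 in HFL/HFH and 437 to 1004 in HFL/HFL. The part of these lists in the contractile results was not tested.

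**Figure D4:**
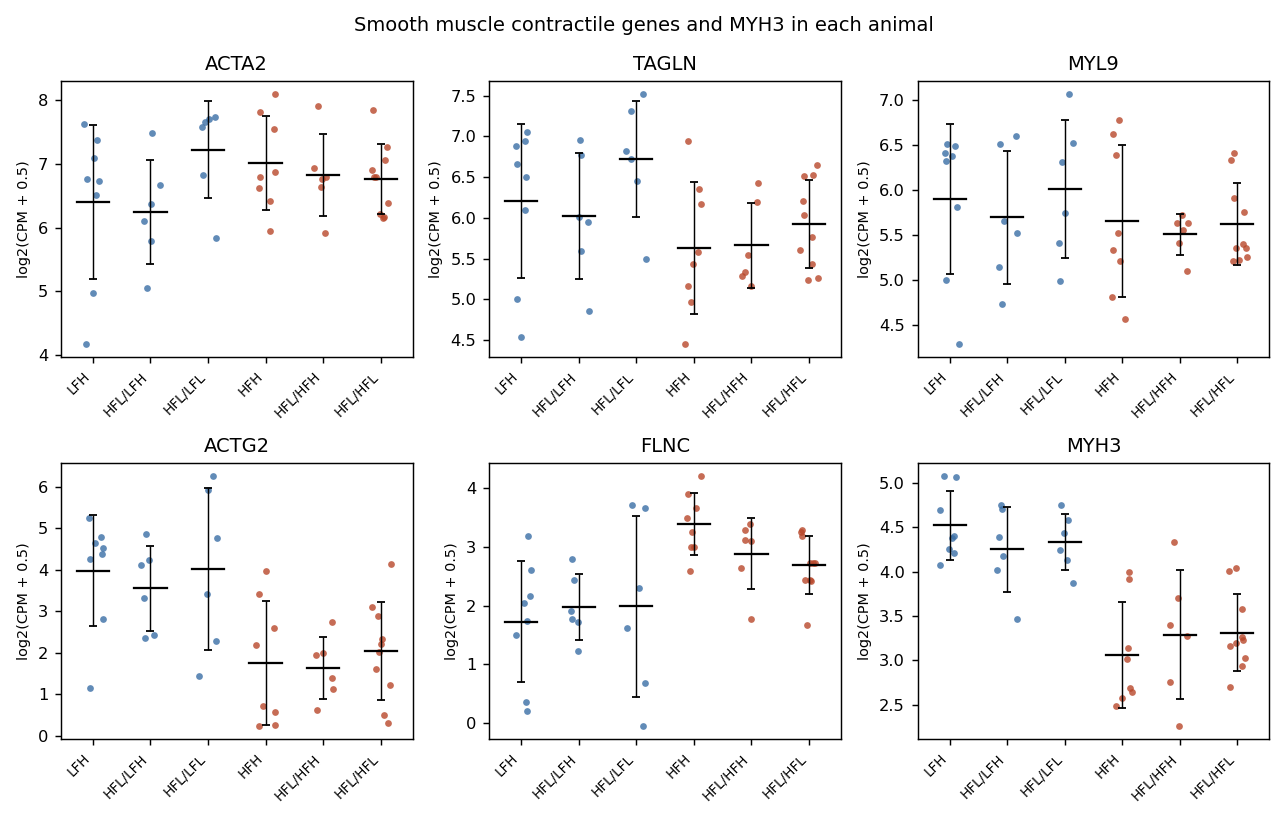
Level of 6 contractile genes in each animal, as log2(CPM + 0.5), by diet group; points are animals (blue low fat, red high fat second feed), the line is the group mean and bars are the SD. ACTG2 and MYH3 lie lower with high fat feed, with ACTG2 uncalled in HFH over LFH and both uncalled in HFL/HFH over HFL/LFH when scaled by library totals alone, and ACTA2, TAGLN and MYL9 overlap widely.

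Of the sarcomeric members MYH3, embryonic skeletal myosin, was lower with high fat feed. It ran from 16.3 to 33.3 CPM in LFH (median 20.4), from 10.6 to 26.5 in HFL/LFH (median 18.98) and from 14.2 to 26.4 in HFL/LFL (median 19.7), and from 5.13 to 15.4 in HFH (median 6.75), 4.28 to 19.7 in HFL/HFH (median 9.60) and 6.01 to 15.9 in HFL/HFL (median 8.74). Only HFH and LFH did not overlap. The differences were −1.44 ± 0.26 (adjusted p = 1.13e-05), −0.91 ± 0.30 (adjusted p = 0.0139) and −1.02 ± 0.26 (adjusted p = 0.00171), and with library totals alone the second became −0.51 (adjusted p = 0.196).

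MYH7, slow muscle and heart myosin, went up from 0 to 0.429 CPM in LFH (median 0.208) to 0.817 to 2.56 in HFH (median 1.09), with no overlap and a difference of 2.77 ± 0.62 (adjusted p = 0.000249). In HFL/HFH over HFL/LFH it differed by 1.90 ± 0.69 (adjusted p = 0.027), a call that was lost in 4 of 12 fits leaving out 1 animal (HFL/HFH 15 or HFL/LFH 3, 4 or 58). At low vitC it differed by 0.64 ± 0.60 (adjusted p = 0.426). ACTN2, the alpha-actinin of the sarcomere's Z-disc, had 0 counts in 6 of 8 LFH animals and 4 to 36 in HFH. It was called higher there (2.06 ± 0.85, adjusted p = 0.0418), a call lost in 9 of 16 such fits, without the filter (adjusted p = 0.0621) and with only the groups compared in the fit (adjusted p = 0.0778). Leaving out 1 animal moved the difference from 1.68 (without HFH animal 61) to 3.05 (without LFH animal 46). ACTN3, MYL2 and MYL4, further sarcomere genes, were not called, with MYL4 at 1.73 ± 0.81 (adjusted p = 0.0725) in HFH over LFH, where library totals alone (adjusted p = 0.0114), leaving out the 3 animals named above (adjusted p = 0.0391) and leaving out HFH animal 1 called it higher. The markers of skeletal and heart muscle (4 tested of 7) had TNNI2 higher in all 3 comparisons and TNNC1 lower in HFH over LFH, and summed to 105 to 1070.3 CPM in LFH, 29.97 to 348 in HFH, 70.6 to 225 in HFL/LFH, 25.1 to 286 in HFL/HFH, 13.2 to 149.7 in HFL/LFL and 61.7 to 312 in HFL/HFL. Their part in the sarcomeric results was not tested.

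Among tubulins TUBB4B, a beta tubulin made in most tissues, rose in all 3 comparisons. It ran from 112 to 199 CPM in LFH (median 147), from 115 to 220.5 in HFL/LFH (median 129) and from 118 to 203 in HFL/LFL (median 166). High fat groups held 200.2 to 343 (HFH, median 251), 195 to 395 (HFL/HFH, median 333) and 242 to 323 (HFL/HFL, median 275). Groups overlapped in HFL/HFH against HFL/LFH through HFL/LFH animal 33. The differences were 0.83 ± 0.14 (adjusted p = 4.04e-06), 1.19 ± 0.16 (adjusted p = 1.92e-07) and 0.83 ± 0.15 (adjusted p = 2.49e-05).

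TUBB4A, a beta tubulin best known from the brain, differed by 0.44 ± 0.17 (adjusted p = 0.0261), 0.69 ± 0.20 (adjusted p = 0.00474) and 0.34 ± 0.18 (adjusted p = 0.122), and its first call was lost without HFH animal 18 or LFH animal 46 or 64 (adjusted p up to 0.0845), while the third was called without HFL/LFL animal 17. TUBB2B, a beta tubulin of developing neurons, was called by edgeR in HFL/HFH over HFL/LFH. It went from 1.32 to 8.52 CPM (median 3.71) to 5.003 to 58.8 (median 26.8), by 2.78 ± 0.73 (adjusted p = 0.00222). In the first and the third it was not called, at 1.04 ± 0.59 (adjusted p = 0.146) and 0.25 ± 0.61 (adjusted p = 0.779). The first was called by limma (adjusted p = 0.0383), with library totals alone (adjusted p = 0.0296) and without LFH animal 56, and the third without HFL/LFL animal 49. TUBA4A and TUBA4B, alpha tubulins, were called in HFL/HFH over HFL/LFH, by 0.80 ± 0.21 (adjusted p = 0.00191) and 0.64 ± 0.19 (adjusted p = 0.00625). In HFH over LFH TUBA4B was not called, at 0.35 ± 0.16 (adjusted p = 0.0695), but upper-quartile normalization (adjusted p = 0.0249), library totals alone and 3 of 16 fits leaving out 1 animal called it. Tubulin genes are near copies of one another, so how their reads were split is uncertain. TUBA8, TUBB1, TUBG1 and TUBGCP2 were not called, TUBA8 with −0.24 ± 0.10 (adjusted p = 0.0534) in HFL/HFL over HFL/LFL, where RLE normalization, DESeq2, limma, only the groups compared in the fit, leaving out the 3 animals named above and 3 of 16 fits leaving out 1 animal called it lower. TUBG1 was called in HFL/HFH over HFL/LFH without the 3 animals and without HFL/LFH animal 33. Scaling by library totals alone called TUBA8 higher in HFH over LFH and in HFL/HFH over HFL/LFH, at 0.39 and 0.34. It also called TUBB1 higher in HFH over LFH, and TUBG1 and TUBGCP2 higher in all 3 feed comparisons.

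Of 20 listed genes of tubulin folding and microtubules 9 were tested, with 3, 2 and 3 higher and 2, 2 and 2 lower. STMN1, stathmin, which takes microtubules apart, rose by 2.29 ± 0.24 (adjusted p = 2.55e-10), 2.27 ± 0.28 (adjusted p = 2.41e-08) and 1.76 ± 0.26 (adjusted p = 8.85e-07). MAP1LC3B, the autophagy protein LC3B, fell in all 3, at −0.73 ± 0.09 (adjusted p = 1.04e-08), −0.46 ± 0.11 (adjusted p = 0.000547) and −0.58 ± 0.09 (adjusted p = 3.49e-06). TBCA, a tubulin folding cofactor, differed by −0.39 ± 0.08 (adjusted p = 0.000104), −0.27 ± 0.09 (adjusted p = 0.0219) and −0.26 ± 0.08 (adjusted p = 0.0116). Dividing cell markers (5 tested of 8) were higher in all 3 comparisons, 5 of 5 in each, with sums of 8.88 to 12.6 CPM in LFH, 4.94 to 10.2 in HFL/LFH, 5.81 to 10.9 in HFL/LFL, 25.2 to 75.02 in HFH, 25.0 to 89.2 in HFL/HFH and 18.5 to 47.7 in HFL/HFL. Their part in the tubulin results was not tested.

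**Figure D5:**
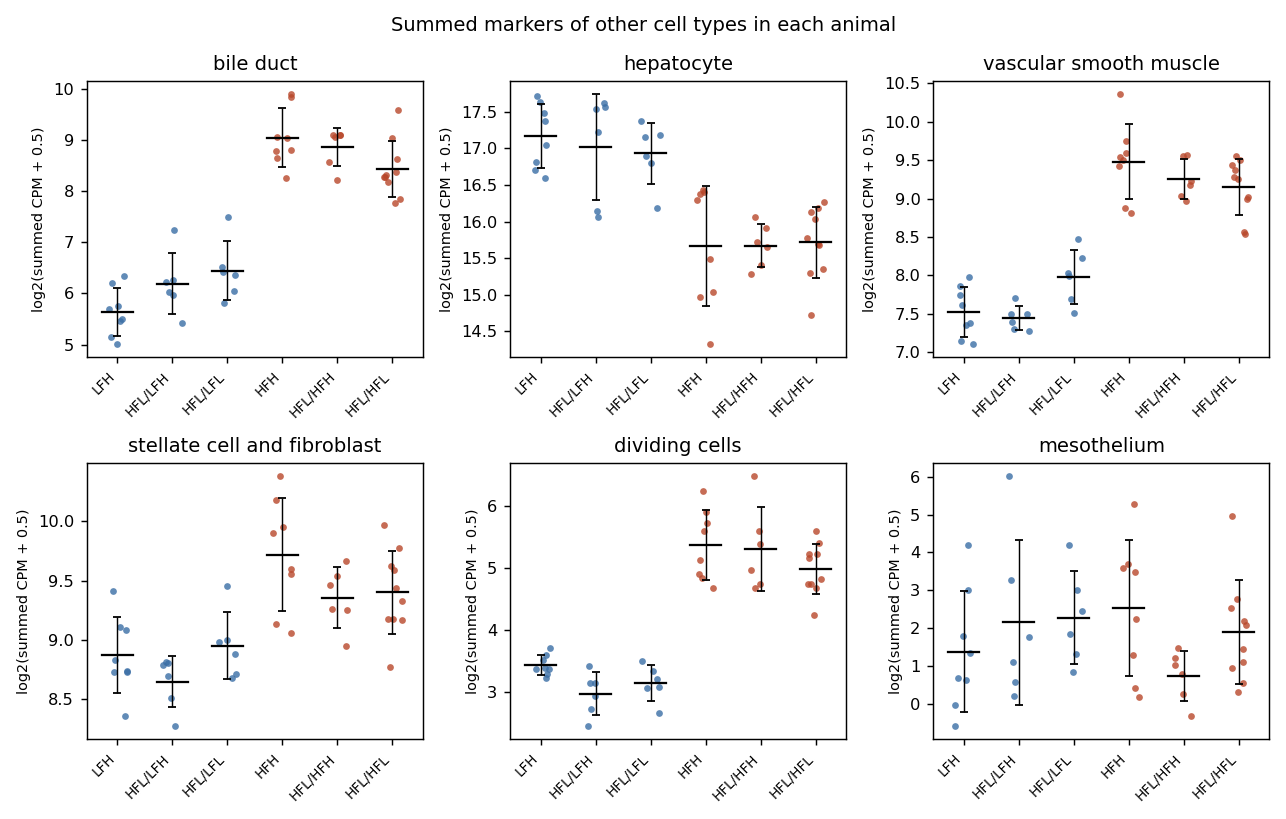
Summed level of 6 cell type marker lists in each animal, as log2(CPM + 0.5), by diet group; points are animals (blue low fat, red high fat second feed), the line is the group mean and bars are the SD. Bile duct and dividing cell sums lie higher in the 3 high fat groups and hepatocyte sums lower, the higher vascular smooth muscle sum is that of RGS5 alone, and 1 HFL/LFH animal stands at 64.9 CPM for mesothelium.

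In the 3 feed comparisons the macrophage markers (5 tested of 9) were 2, 2 and 2 higher and 1, 0 and 0 lower. T cell markers (6 tested of 6) were 1, 1 and 0 higher and 1, 1 and 0 lower, B cell markers (4 of 4) were 0, 0 and 0 higher and 1, 1 and 1 lower, and endothelial markers (5 of 7) were 1, 0 and 0 higher and 1, 1 and 4 lower.

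The effect of vitC was asked by HFL/LFL over HFL/LFH, HFL/HFL over HFL/HFH and HFL/HFL over HFH. In each of them edgeR and DESeq2 called 0 members. Of all symbols edgeR called 0.219%, 0.0129% and 0.271%, and DESeq2 called 80, 1 and 147 symbols. By edgeR 3, 4 and 4 members had an unadjusted p under 0.05. During regression on the low fat feed TUBB2B differed by 1.55 ± 0.70, ACTA2 by 0.93 ± 0.43 (adjusted p = 0.405) and TPM1 by 0.29 ± 0.14, and the smallest adjusted p of any member was 0.393. On continued high fat feed ACTN3, the alpha-actinin of fast muscle, differed by −1.88 ± 0.52 (adjusted p = 0.752), KRT18 by −0.43 ± 0.16, TUBA4A by −0.47 ± 0.18 and KRT8.2 by −0.34 ± 0.16. In HFL/HFL over HFH the values were −0.46 ± 0.16 for MYH9 (adjusted p = 0.156, the smallest of any member), −0.25 ± 0.09 for CNN3, −1.16 ± 0.49 for ACTN3 and −0.74 ± 0.36 for KRT7. None of these differences passed adjustment.

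What remained after the switch was read against LFH, a group that HFH over LFH also used. HFL/LFH over LFH called 0 members (0.361% of all symbols), with 0 at an unadjusted p under 0.05 and a smallest adjusted p of 0.549. TPM1 differed by 0.05 ± 0.13, KRT18 by 0.18 ± 0.17, KRT7 by 0.62 ± 0.42, KRT80 by 0.45 ± 0.57 and ACTB by −0.07 ± 0.21, and the ranges of KRT8.2, KRT18 and TPM1 in the switched animals overlapped those of LFH. HFL/LFL over LFH called 0 members as well, against 7.91% of all symbols, with 5 at an unadjusted p under 0.05. These were TPM1 at 0.35 ± 0.13 (adjusted p = 0.0883), KRT80 at 1.31 ± 0.54 (adjusted p = 0.131), TPM3 at 0.21 ± 0.09 (adjusted p = 0.139), KRT7 at 0.98 ± 0.42 (adjusted p = 0.139) and KRT19 at −0.51 ± 0.24 (adjusted p = 0.181). Without LFH animal 27 KRT7 and KRT80 were called, without HFL/LFL animal 17 TPM1 was called higher, and without HFL/LFL animal 68 KRT19 was called lower. In the same comparison 2 of the 3 bile duct markers and 3 of the 26 actin regulators were higher.

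Whether the feed difference depended on vitC in the switched animals was tested by the interaction, (HFL/HFL − HFL/LFL) − (HFL/HFH − HFL/LFH). It called 0 members by edgeR and by DESeq2, against 0% of all symbols by edgeR and 3 symbols in all by DESeq2. By edgeR 6 members had an unadjusted p under 0.05. They were TUBB2B at −2.53 ± 0.92 (adjusted p = 0.444), ACTN3 at −1.87 ± 0.80, TUBA4A at −0.60 ± 0.27, KRT18 at −0.54 ± 0.25, TPM1 at −0.40 ± 0.18 and MYH9 at −0.54 ± 0.27. For TUBB2B, TUBA4A, KRT18, TPM1 and MYH9 the feed difference was the smaller at low vitC, and none of these passed adjustment.

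The number of called members depended on the scaling. With library totals alone the median of all symbols moved up by 0.55, 0.46 and 0.33 (log2) in the 3 feed comparisons, and 31 members were called in HFH over LFH (30 higher, 1 lower), 25 in HFL/HFH over HFL/LFH (25 higher, 0 lower) and 21 in HFL/HFL over HFL/LFL (19 higher, 2 lower). No called member changed sign under any alternative tried.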

How the data were processed

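The 44 livers of 6 diet groups were sequenced as mRNA. Per the submitters, reads were trimmed (Trimmomatic 0.38.0), aligned to Ensembl's guinea pig genome (HISAT2 2.1.0) and quantified (StringTie 2.1.1, versions from their processing notes), and genes were named by human orthologues. The deposited whole-number counts per symbol are not normalized, and the authors' variance-stabilized values, made with DESeq2, are in log2 units. The step from StringTie's output to counts, and any use of strand in it, are not given in the sources used here. Gene coordinates and sequences are not used here.

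Counts were tested with edgeR 4.0.16 in R 4.3.3 (TMM, quasi-likelihood F test, 1 mean per group) over 7750 symbols, those reaching 200 counts summed over animals, with Benjamini-Hochberg adjustment and a threshold of 0.05. CPM use effective library sizes, and plots add 0.5 CPM. The floor of 3 counts covers counting error only. The fit was tested on simulated data. The members, gene lists and markers were chosen with earlier results of these data known. All members could be named. Values in every group were set for up to 14 members called in all 3 feed comparisons, and for KRT8, KRT18, KRT7, KRT19, ACTB, ACTG1, ACTA2, MYH9, TAGLN and TPM1, and group values of other members were added after their values were seen. List genes are the 3 smallest p per list in HFH over LFH with SRF and RHOA, and marker genes named singly were chosen after their values were seen.

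Other settings were upper-quartile or RLE normalization, all symbols with a count, DESeq2 1.42.0, only the groups compared, symbols with identical counts taken once, limma 3.58.1 on the variance-stabilized values and each animal left out in turn. Library totals alone, and leaving out 3 animals, were added after the data were seen.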

Additional observations from a re-analysis of the deposited data

Results flagged for a closer look

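In 18 members, 105 pairs of a member and a diet group were searched for 1 animal standing apart from the rest of its group on a log2 scale, and 3 further pairs with counts of at most 3 were left out. The search found 7, and chance gives about 1 in 20 groups. LFH animal 92 had KRT18 at 108 CPM, with the next animal at 71.1, and LFH animal 64 had CNN2 at 40.4 CPM, with the next at 21.7. HFH animal 47 had ACTG1 at 2310.0 CPM, with the next at 1549.6, and HFL/HFH animal 22 had KRT19 at 901 CPM, with the next at 570.4. HFL/LFH animal 33 stood high for KRT7, at 41.4 CPM against 14.8 in the next, and for TUBB4B, at 220.5 against 133. HFL/LFH animal 43 stood low for KRT8.2, at 299 CPM, with the next at 469.7. The interaction of feed and vitC called 0 members.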

How the results depend on the processing

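No paired analysis was possible because no animal is in more than 1 group and the labels give no pairs. Across the other settings fixed at the start, the called members numbered 20 to 22 in HFH over LFH, 21 to 22 in HFL/HFH over HFL/LFH and 15 to 17 in HFL/HFL over HFL/LFL, and 0 in the other comparisons. Leaving out 1 animal gave 19 to 22, 19 to 22 and 15 to 17, gave 0 to 2 in HFL/LFL over LFH, and gave 0 in the others. Library totals alone gave 2 in HFL/LFL over LFH (MYH9 and TPM3). Of 58 called pairs of a member and a feed comparison, 52 stayed under the threshold in every fit without 1 animal and 52 under all other alternatives, and 0 changed sign. Of 56 uncalled pairs 18 changed sign under some alternative, and their cause was not tested beyond the shift that library totals alone gives to all symbols. With library totals alone, in HFH over LFH, MYL2 was 0.53, MYL9 0.38, TUBA8 0.39 and TUBG1 0.48. In HFL/HFH over HFL/LFH, CNN3 was 0.40, KRT14 0.36, MYL9 0.058 and TUBA8 0.34. In HFL/HFL over HFL/LFL, ACTG1 was 0.29, CNN3 0.14, MYL2 0.28 and TUBA8 0.094. The called ones were TUBA8 and TUBG1 in the first and CNN3 and TUBA8 in the second. With upper-quartile normalization MYL2 was 0.023 in the first and 0.0019 in the third, and with limma CNN3 was −0.0026 in the first, KRT14 0.089 in the second and MYL2 0.020 in the third. Without 1 animal, in the first, CNN3 ran from −0.074 to 0.077 and MYL2 from −0.27 to 0.044. In the second, ACTN2 ran from −0.36 to 0.82, KRT14 from −0.94 to 1.61 and TUBGCP2 from −0.028 to 0.084. In the third, ACTG1 ran from −0.17 to 0.083, ACTN2 from −0.13 to 0.64, FLNC from −0.071 to 0.59, MYL2 from −0.22 to 0.15 and TUBGCP2 from −0.016 to 0.047. Without HFL/LFH animals 32 and 33 and HFL/LFL animal 44 KRT14 was 1.299 in the second. At 0.0626 to 0.170 CPM per 3 counts, depth limits the 10 members with a mean under 2 CPM.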
